A study of Mus musculus with 6 samples.

Results

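The genes described here encode 5 actins and the 4 tropomyosins of the mouse, proteins that build the thin filament of the sarcomere and the actin cytoskeleton. They are *Acta1*, *Actc1*, *Actb*, *Actg1*, *Actg2*, *Tpm1*, *Tpm2*, *Tpm3* and *Tpm4*, taken by their symbols. All 9 were found once among the 23995 genes of the deposited table. All 9 had at least 1 FPKM (fragments per kilobase of transcript, scaled to library size) in at least 3 libraries and so stood among the 12485 genes tested.

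Actin monomers polymerise into filaments, and tropomyosin dimers lie end to end along them. In striated muscle the tropomyosin strand, together with troponin, sets when myosin can reach actin, whereas in other cells tropomyosin isoforms mark filament populations and govern which binding proteins gain access. Cardiac alpha-actin is the main sarcomeric actin of the adult mouse heart. Skeletal alpha-actin is prominent in the fetal and newborn heart and is a classical marker of pressure overload, and beta- and gamma-actin serve the cytoskeleton of every cell type.

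RNA was sequenced from hearts of mice operated on at 10 to 12 weeks of age by transverse aortic constriction (TAC), in which a suture narrows the aortic arch and makes the left ventricle pump against raised pressure. The 3 libraries of the first group came from mice labelled wild type, whose library names contain flox, and no label says whether these animals carried floxed alleles or a Cre transgene. The 3 libraries of the other group came from mice with an inducible deletion of *Ltbp4* in cardiomyocytes, abbreviated here as knockout. *Ltbp4* encodes a matrix protein that holds TGF-beta in its latent form. The sources used here do not give the promoter that drives Cre, the inducing agent, the time after surgery or the part of the heart taken. Both groups had TAC and unoperated hearts were not analysed here, so the values compare genotypes under load and show no response to the operation. Nothing in the labels says that the libraries came from separate animals, so p-values measure only the spread between these samples.

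The depth recovered from low FPKM values was about 3700000 to 13800000 fragments per library. Wild-type libraries 1 and 3 differed by at most 2.48 times the counting variance and knockout libraries 2 and 3 by at most 2.47 times, against 27.05 to 107.1 times for the other 13 pairs at the depth where each differed most. Each of these close pairs was averaged and counted as 1 sample, which left 4 samples, 2 per genotype. In wild-type libraries 1 to 3 the targeted gene *Ltbp4* had 368, 248 and 357 FPKM, and knockout libraries 1 to 3 had 139, 199 and 195 FPKM. Of the 12485 genes, 1 was called at an adjusted p under 0.05 (limma with Benjamini-Hochberg adjustment), which is 0.00801%, and it was *Esr1*, the gene of oestrogen receptor alpha. It stood at 0, 0.202 and 0 FPKM in the wild-type libraries and at 1425, 781 and 758 FPKM in the knockout libraries. Gene-level values do not show which part of the *Esr1* sequence the reads covered, and the origin of these reads was not tested.

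Markers of the cell types differed between libraries of the same genotype. All 12 cardiomyocyte markers were present in every library, and their summed level ran from 8658 to 32597 FPKM in the wild-type libraries and from 27873 to 95602 FPKM in the knockout libraries, with knockout library 1 highest. Wild-type libraries 1 and 3 carried atrial transcripts, with the atrial myosin light chain *Myl4* at 2629 and 2560 FPKM, against 8.11 to 16.0 FPKM in the other 4 libraries. The 8 smooth muscle markers summed to 448 to 1053 FPKM in the wild-type libraries and to 207 to 1020 FPKM in the knockout libraries, with knockout library 1 lowest. For all 10 macrophage markers the highest knockout library lay under the lowest wild-type one, as for 11.5% of all genes, with summed levels of 580 to 1081 FPKM in the wild type and 400 to 460 FPKM in the knockout. The 10 fibroblast markers had estimates below 0 in all cases, 5 of them without overlap, and summed to 1664 to 4051 FPKM and to 724 to 2476 FPKM. No macrophage or fibroblast marker was called by limma, with 1 and 2 of them at an unadjusted p under 0.05. The 10 skeletal muscle markers summed to 6.2 to 28.4 FPKM over the 6 libraries, with wild-type libraries 1 and 3 highest. Of these, *Myh4* and *Myf6* were at 0 in all 6 libraries. *Tnnt3* stood at 23.97, 3.372 and 22.31 FPKM in the wild-type libraries and at 2.187, 2.164 and 2.901 FPKM in the knockout libraries. *Mylpf* ran from 1.106 to 6.713 FPKM and *Tnni2* from 0 to 4.414 FPKM, without separation of the genotypes. In such bulk samples fewer cells of a type and less RNA per cell cannot be told apart. Results are therefore given by library, and with and without the libraries that stand apart.

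The actins differ least in the body of the protein and most at its amino-terminal end, where a short run of acidic residues distinguishes the isoforms. The first coding bases of the 5 genes are shown to make that difference visible, with the codons for aspartate or glutamate in capitals, from GENCODE M21 transcripts on GRCm38.
Acta1: atgtgcGACGAAGACGAGaccaccgctctt
Actc1: atgtgtGACGACGAGGAGaccaccgctttg
Actb: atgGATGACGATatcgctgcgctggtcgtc
Actg1: atgGAAGAAGAAatcgccgcactcgtcatt
Actg2: atgtgtGAAGAAGAGaccaccgcccttgtg
The striated actins *Acta1* and *Actc1* hold 4 such codons behind a cysteine codon, *Actg2* holds 3 behind a cysteine codon, and the cytoplasmic *Actb* and *Actg1* hold 3 directly behind the start codon. All 3 acidic codons of *Actg1* are for glutamate and all 3 of *Actb* are for aspartate. Over the whole coding sequence *Acta1* and *Actc1* were identical at 86.2% of bases and *Actb* and *Actg1* at 88.7%, while the other actin pairs ranged from 81.5% to 84.9%. The tropomyosin transcripts were less alike by this measure, at 57.7% to 74.7%. Identity was counted over the longer coding sequence of each pair, with 1 transcript per gene. The tropomyosin coding lengths ran from 747 to 981 bases and those of the actins from 1128 to 1134, so unequal length lowers the tropomyosin values.

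Reads can also match other loci. Of the 50-base words of the *Actg1* transcript, 56.7% occur in other annotated genes, among them *Gm12715*, *Gm8399* and *Actg-ps1*, and 1.58% in another of the 9 genes. The share found in other annotated genes was 62.4% for *Tpm3*, mostly in *Tpm3-rs7*, 16.1% for *Tpm4*, 14.2% for *Actb* and 2.22% for *Acta1*, and it was 0 for *Actc1*, *Actg2*, *Tpm1* and *Tpm2*. How reads with several matches were assigned is not given in the sources used here, so the levels of *Actg1* and *Tpm3*, and to a lesser degree of *Tpm4* and *Actb*, are uncertain. Annotated genes on the opposite strand overlap *Acta1*, *Actc1* and *Tpm4*. Whether the kit kept strand is not stated, and without it reads from an overlapping pair cannot be told apart.

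Serum response factor (SRF) binds the CArG box and is a classical regulator of actin genes. The RefSeq table of promoters on GRCm38.p6 held a window for 7 of the 9 genes. *Actb* and *Actg2* had none and were not searched. For the others, the 250 bases before the annotated start were searched on both strands for 3 motifs. These were the CArG box, the MCAT motif CATTCC, which TEAD factors bind, and the GC box GGGCGG. The 3 promoters with a CArG box are shown, with that box in capitals, because they are the striated actins and 1 cytoplasmic actin. They lie on the minus strand at chr8:123894776-123895025 for *Acta1*, chr2:114052876-114053125 for *Actc1* and chr11:120348496-120348745 for *Actg1*.
Acta1: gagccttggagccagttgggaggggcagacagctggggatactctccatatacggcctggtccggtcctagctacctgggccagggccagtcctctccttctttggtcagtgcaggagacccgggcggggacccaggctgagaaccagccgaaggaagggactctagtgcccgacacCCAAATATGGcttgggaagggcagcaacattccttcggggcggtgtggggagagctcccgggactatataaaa
Actc1: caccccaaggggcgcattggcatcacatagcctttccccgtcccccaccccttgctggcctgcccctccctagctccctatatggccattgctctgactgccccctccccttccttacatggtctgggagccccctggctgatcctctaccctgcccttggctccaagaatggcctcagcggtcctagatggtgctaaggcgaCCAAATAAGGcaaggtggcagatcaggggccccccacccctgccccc
Actg1: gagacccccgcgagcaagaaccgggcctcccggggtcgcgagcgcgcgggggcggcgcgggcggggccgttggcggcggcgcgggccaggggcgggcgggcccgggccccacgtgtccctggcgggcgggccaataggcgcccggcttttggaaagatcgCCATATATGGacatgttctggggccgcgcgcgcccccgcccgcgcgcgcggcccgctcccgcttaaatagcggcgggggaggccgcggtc
The box began 73 bases before the start in *Acta1*, 47 bases before it in *Actc1* and 90 bases before it in *Actg1*. The *Acta1* window also held an MCAT motif, which began 46 bases before the start. The windows of *Tpm1*, *Tpm2*, *Tpm3* and *Tpm4* held no CArG box, and that of *Tpm1* held an MCAT motif on the reverse strand. Of all 32841 windows of this length, 1.47% held a CArG box, 12.6% an MCAT motif and 32.7% a GC box. A match describes the letters of the window and is no evidence of binding.

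*Acta1*, skeletal alpha-actin, varied more than any other of the 9 genes. The gene lies at chr8:123891758-123894775 on the minus strand (mm10). Wild-type libraries 1 to 3 had 97.7, 1167 and 93.0 FPKM, and knockout libraries 1 to 3 had 1617, 437 and 442 FPKM. Wild-type library 2 was therefore 12.3 times the mean of the other two wild-type libraries, and the groups overlapped because that library exceeded knockout libraries 2 and 3. The mean over samples was 631 ± 758 FPKM (SD, n = 2) in the wild type and 1028 ± 833 FPKM (SD, n = 2) in the knockout. The log2 difference between genotypes was 1.33 (95% interval -1.60 to 4.26), with an adjusted p of 0.999 by limma with Benjamini-Hochberg adjustment. Leaving out knockout library 1 gave 0.39, and leaving out wild-type library 2 gave 3.13. The gap of 3.60 between the wild-type samples on the log2 scale was wider than that of 99.8% of the genes tested, so the difference between genotypes was smaller than the spread inside the wild type. Its direction also depended on the libraries with atrial transcripts. Wild-type library 2 set against knockout libraries 2 and 3 gave -1.41. That comparison, used again below, sets 1 sample against 1 and has no replicate. The fit without wild-type libraries 1 and 3 gave -0.47.

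*Actc1*, cardiac alpha-actin, lies at chr2:114047289-114052811 on the minus strand. It stood at 1268, 1452 and 1217 FPKM in the wild-type libraries and at 6133, 1438 and 1434 FPKM in the knockout libraries. A single library was high. Knockout library 1 was 4.27 times the mean of knockout libraries 2 and 3, and those libraries lay inside the wild-type range. The log2 difference was 1.14 (95% interval -0.78 to 3.06), and the gap between the knockout samples was 2.09. Without knockout library 1 the difference was 0.10, and wild-type library 2 and the mean of knockout libraries 2 and 3 differed by -0.02 on the log2 scale.

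The striated actins did not keep a fixed ratio to each other. *Acta1* made up 7.16%, 44.6% and 7.10% of the summed FPKM of *Acta1* and *Actc1* in the wild-type libraries and 20.9%, 23.3% and 23.5% in the knockout libraries. The knockout libraries thus lay between wild-type library 2 and the other two. In wild-type libraries 1 and 3, where the skeletal isoform had its lowest share, the summed cardiomyocyte markers were also lowest, at 8658 and 8835 FPKM, and the atrial transcripts were highest. The fetal myosin heavy chain *Myh7* showed the same order of samples as *Acta1*, with 4.89, 228 and 5.71 FPKM in the wild-type libraries and 782, 47.1 and 45.4 FPKM in the knockout libraries. *Myh7* is 1 of 10 genes of the pressure overload and fetal programme list, of which 0 were called and 1 had an unadjusted p under 0.05 (limma), with 5 estimates above and 5 below 0. Others of that list ran otherwise, such as the natriuretic peptide gene *Nppa*, at 30530, 1511 and 30710 FPKM in the wild-type libraries and at 13880, 233 and 232 FPKM in the knockout libraries. The part of atrial tissue in these values was not tested. Set against the adult myosin heavy chain *Myh6*, *Acta1* still differed between libraries, at 0.176, 0.549 and 0.162 in the wild type and at 0.597, 0.364 and 0.371 in the knockout.

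**Figure D1:**
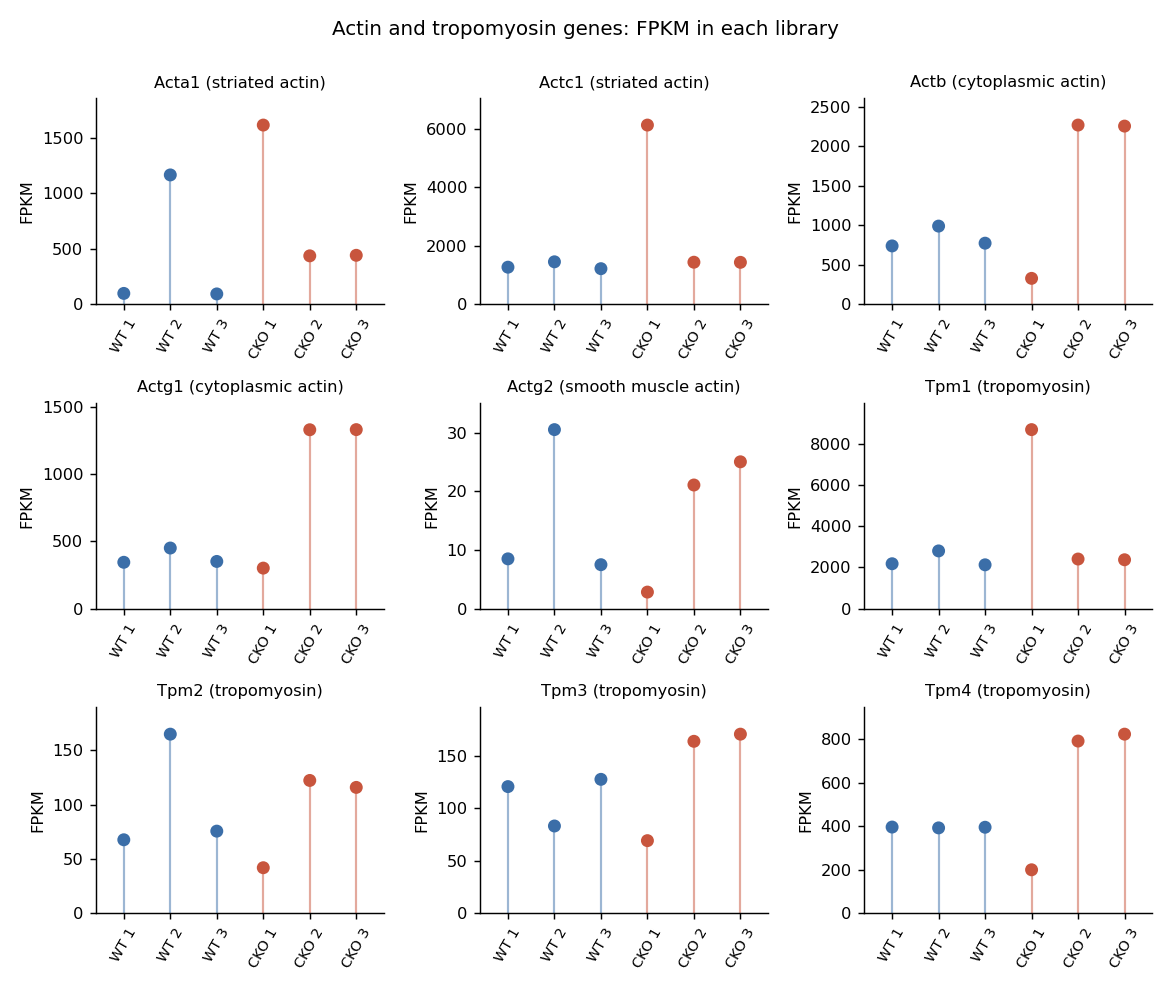
FPKM of the 9 genes in each of the 6 libraries on a linear axis scaled separately for each gene, with wild-type (WT) and knockout (CKO) libraries side by side. The libraries of the genotypes overlap for every gene, and knockout library 1 is the highest library for *Acta1*, *Actc1* and *Tpm1* and the lowest for the other 6 genes.

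*Actb*, beta-actin of the cytoskeleton and a common reference gene for expression assays, lies at chr5:142903116-142906724 on the minus strand. It stood at 738, 989 and 772 FPKM in the wild-type libraries and at 327, 2267 and 2254 FPKM in the knockout libraries. The knockout libraries lay on either side of the wild type, with library 1 below all 3 and libraries 2 and 3 above all 3. The log2 difference of -0.01 (95% interval -2.23 to 2.22) averaged over a gap of 2.78 between the knockout samples.

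*Actg1*, gamma-actin of the cytoskeleton, lies at chr11:120345690-120348484 on the minus strand. It stood at 345, 451 and 351 FPKM in the wild-type libraries and at 302, 1328 and 1329 FPKM in the knockout libraries. The pattern was that of *Actb*, with knockout library 1 lowest of all and knockout libraries 2 and 3 highest. The log2 difference was 0.68 (95% interval -1.16 to 2.52), and 1.74 without knockout library 1. Knockout libraries 2 and 3 were 2.95 times wild-type library 2 for *Actg1* and 2.29 times for *Actb*.

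The relative levels of the cytoplasmic actins varied less than the levels themselves. *Actb* held 68.2%, 68.7% and 68.8% of the summed FPKM of *Actb* and *Actg1* in the wild-type libraries, and 52.1%, 63.1% and 62.9% in the knockout libraries. This share was lower in each of the 3 knockout libraries than in any wild-type library, with libraries of the close pairs counted singly. No background over other gene pairs was computed to set beside it. The means over samples were 68.6% ± 0.166 (SD, n = 2) and 57.5% ± 7.73 (SD, n = 2). The difference between genotypes was -11.1 percentage points, and -5.59 without knockout library 1. This share carries the uncertainty of *Actg1* named above, and no test was made of it.

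The balance between cytoskeletal and sarcomeric actin differed most between the knockout libraries. Summed *Actb* and *Actg1* over summed *Acta1* and *Actc1* gave 0.793, 0.550 and 0.858 in the wild-type libraries and 0.0811, 1.92 and 1.91 in the knockout libraries. Sarcomeric actin was therefore in excess in every wild-type library and in knockout library 1, and cytoplasmic actin was in excess in knockout libraries 2 and 3. Of the 5 actin genes together, *Actc1* held 35.5% to 51.6% in the wild-type libraries, 73.2% in knockout library 1 and 26.2% and 26.1% in knockout libraries 2 and 3. Knockout library 1 had the highest summed cardiomyocyte markers, at 95602 FPKM, against 28132 and 27873 FPKM in knockout libraries 2 and 3. Its summed endothelial markers were the lowest, at 8051 FPKM, of which the fatty acid binding protein gene *Fabp4* made up 6977 FPKM. The 8 single markers of knockout library 1 went both ways. *Fabp4* and *Egfl7*, the latter at 289.5 FPKM, lay below every wild-type library, and *Tie1* and *Emcn* lay inside the wild-type range. *Pecam1*, *Cdh5*, *Kdr* and *Tek* stood at 179, 179, 67.7 and 62.15 FPKM, above every wild-type library. For these 4 all knockout libraries exceeded all wild-type libraries, as for 10.4% of all genes. *Pecam1*, *Cdh5* and *Kdr* were higher still in knockout libraries 2 and 3. The part of cell makeup in the actin balance was not tested.

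**Figure D2:**
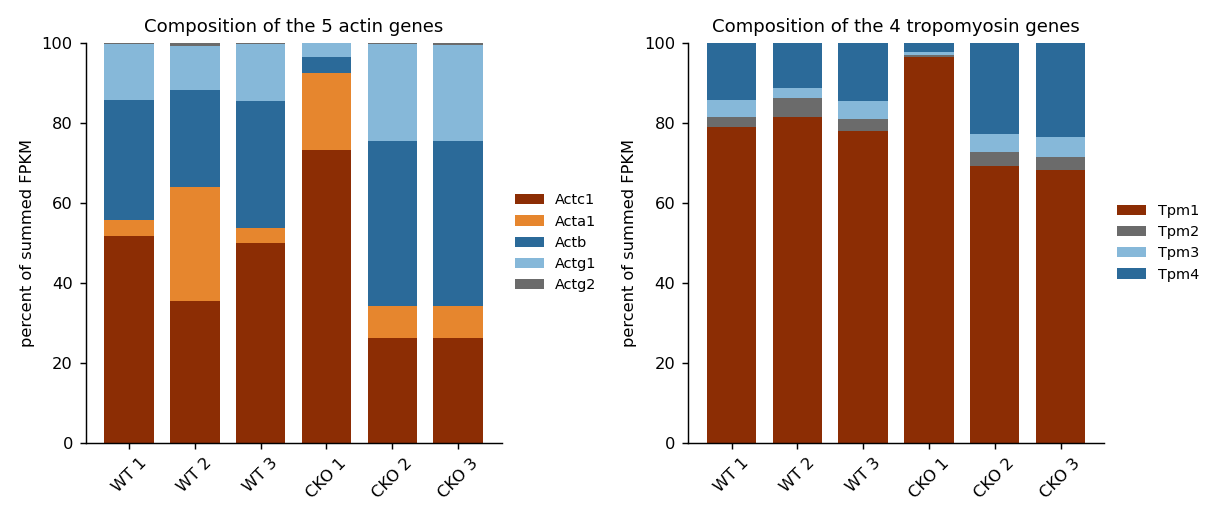
Share of each gene in the summed FPKM of the 5 actin genes and of the 4 tropomyosin genes, in percent, as stacked bars for the 6 wild-type (WT) and knockout (CKO) libraries. *Actc1* fills 73.2% of the actin bar and *Tpm1* 96.5% of the tropomyosin bar in knockout library 1, against 26.2% and 69.1% in knockout library 2.

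*Actg2*, the gamma-actin of visceral smooth muscle, was the lowest of the 9 genes. It lies at chr6:83512909-83536251 on the minus strand and stood at 8.50, 30.5 and 7.51 FPKM in the wild-type libraries and at 2.84, 21.1 and 25.0 FPKM in the knockout libraries. These values rest on about 41.2 to 177 fragments per library, so counting error is larger than for the other 8 genes, which had at least 334. Its log2 difference was -0.81 (95% interval -3.08 to 1.46), beside gaps of 1.81 between the wild-type samples and 2.65 between the knockout samples. The 3 genes whose pattern over the 6 libraries was nearest to *Actg2* were the smooth muscle genes *Cnn1*, *Acta2* and *Myh11*, at root mean square distances of 0.0736, 0.267 and 0.271 on the log2 scale. Relative to *Acta2*, smooth muscle alpha-actin, *Actg2* stood at 0.0433 to 0.102 in all libraries. The part of smooth muscle content in its values was not tested.

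*Tpm1* encodes the principal striated muscle tropomyosin, alpha-tropomyosin, and was the highest of the 9 genes in every library. It lies at chr9:67022593-67049213 on the minus strand. Its level was 2180, 2801 and 2128 FPKM in the wild-type libraries and 8674, 2408 and 2373 FPKM in the knockout libraries. Knockout library 1 alone was high, where *Tpm1* ranked 7 among all genes by FPKM, against ranks of 31 to 38 in the other 5 libraries. The log2 difference was 0.89 (95% interval -0.98 to 2.76), and wild-type library 2 against knockout libraries 2 and 3 gave -0.23. *Tpm1* and *Actc1* were the closest pair among the 9 genes, at a root mean square distance of 0.133 on the log2 scale over the 6 libraries. The ratio of *Tpm1* to the summed striated actins was 1.60, 1.07 and 1.63 in the wild-type libraries and 1.12, 1.29 and 1.27 in the knockout libraries, without separation of the genotypes.

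*Tpm2*, beta-tropomyosin of slow skeletal and smooth muscle, lies at chr4:43513726-43523554 on the minus strand. It stood at 67.7, 165 and 75.6 FPKM in the wild-type libraries and at 42.0, 122 and 116 FPKM in the knockout libraries. It was high in the same libraries as *Actg2*, namely wild-type library 2 and knockout libraries 2 and 3, and these were the libraries with the highest summed smooth muscle markers. Between genotypes the log2 difference was -0.61 (95% interval -2.18 to 0.96). The part of smooth muscle content was not tested.

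*Tpm3*, which gives slow-muscle and cytoskeletal tropomyosins, lies at chr3:90072651-90100902 on the plus strand. It stood at 121, 83.1 and 128 FPKM in the wild-type libraries and at 69.2, 164 and 171 FPKM in the knockout libraries. The spread was the narrowest of the 9 genes, with the highest library 2.47 times the lowest. Its log2 difference was 0.08 (95% interval -1.24 to 1.41), and its level is uncertain through the 50-base words it shares with other loci.

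*Tpm4*, a cytoskeletal tropomyosin associated with stress fibres and platelets, lies at chr8:72135292-72153129 on the plus strand. Its wild-type libraries stood at 396, 393 and 395 FPKM, the smallest wild-type spread of the 9 genes. The knockout libraries stood at 200, 791 and 823 FPKM, with library 1 below and libraries 2 and 3 above all wild-type libraries. The log2 difference was 0.03 (95% interval -1.71 to 1.77) beside a gap of 2.01 between the knockout samples and 0.01 between the wild-type samples, and it was 1.03 without knockout library 1. Among the 9 genes its pattern was nearest to *Actb*, at a distance of 0.304.

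Within the tropomyosins the composition followed the same libraries. *Tpm1* made up 78.9%, 81.4% and 78.0% of the summed tropomyosin FPKM in the wild-type libraries and 96.5%, 69.1% and 68.1% in the knockout libraries. *Tpm4* made up 11.4% to 14.5% in the wild-type libraries, 2.23% in knockout library 1 and 22.7% and 23.6% in knockout libraries 2 and 3. The knockout libraries lay on both sides of the wild type for both genes.

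**Figure D3:**
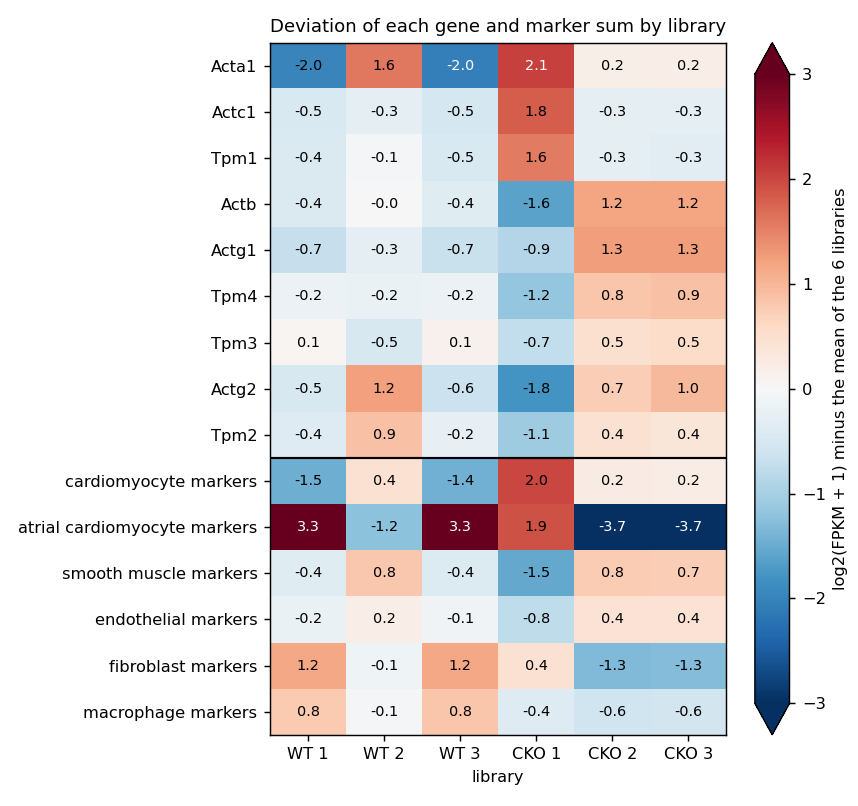
Deviation of each gene from its own mean over the 6 libraries, in log2(FPKM + 1), for wild-type (WT) and knockout (CKO) libraries. The lower rows give the same for summed cardiomyocyte, atrial cardiomyocyte, smooth muscle, endothelial, fibroblast and macrophage markers. In knockout library 1 *Nppa* made up 13880 of the 13932 FPKM of the atrial sum. *Actc1* and *Tpm1* share the high value of knockout library 1, while *Actb*, *Actg1*, *Tpm3* and *Tpm4* are highest in knockout libraries 2 and 3.

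None of the 9 genes differed between the genotypes beyond the spread between samples. By limma with Benjamini-Hochberg adjustment over all 12485 genes tested, 0 of 9 were called and 0 of 9 had an unadjusted p under 0.05, beside 0.00801% of all genes called, and every adjusted p was 0.999. The exact two-sided permutation test over the 6 libraries gave p from 0.3 to 1, where 0.1 is the smallest p that 3 against 3 allows. Over the 4 samples it gave 0.667 or 1, where the smallest possible is 0.333, so neither permutation test could pass the threshold and both are descriptive. Estimates were above 0 for 6 genes and below 0 for 3, and their median was 0.08 on the log2 scale, against a median of 0.04 over all genes. For 0 of 9 did all knockout libraries exceed all wild-type libraries, where 10.4% of all genes did, and for 0 of 9 did all fall below, where 11.5% did. The estimate was smaller than the gap between the knockout samples for all 9 genes. That gap ranged from 1.26 to 2.78, while its median over all genes was 0.49. These wide intervals leave room for large differences in either direction, and a missed threshold does not show that the genotypes were alike.

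**Figure D4:**
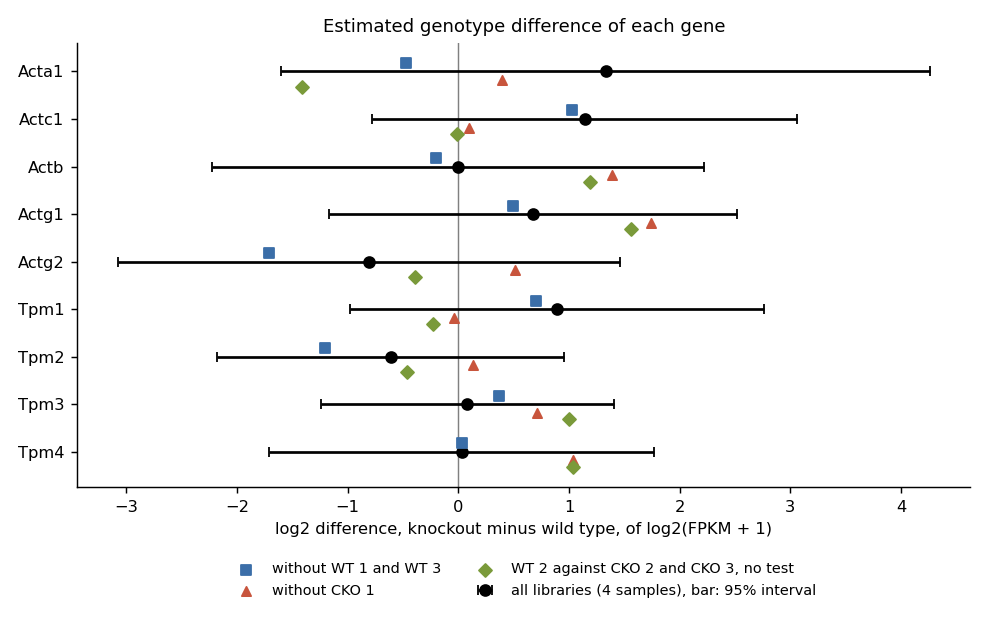
Estimated log2 difference, knockout minus wild type, on log2(FPKM + 1) for the 9 genes, with 95% limma intervals over 4 samples. All 9 intervals include 0, from *Acta1* at 1.33 down to *Actg2* at -0.81.

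The libraries fall into runs of record numbers, and the difference was also taken inside each run. The first run held wild-type libraries 1 and 2 and knockout libraries 1 and 2, and gave 1.31 for *Acta1*, 1.13 for *Actc1*, 0.01 for *Actb* and 0.89 for *Tpm1*. The second run held 1 library of each genotype, so its values have no replicate, and gave 2.23 for *Acta1*, 0.24 for *Actc1*, 1.54 for *Actb* and 0.16 for *Tpm1*. *Actg2* and *Tpm2* were lower in the knockout in the first run, at -0.91 and -0.55, and higher in the second, at 1.61 and 0.61. Both libraries of the second run belong to the close pairs, with wild-type library 1 and knockout library 2 of the first run. The runs are therefore not separate sets of samples, and only the first held wild-type library 2 and knockout library 1.

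Summed over the list, the partners of the striated thin filament were highest in knockout library 1, as *Actc1* and *Tpm1* were. Troponin, tropomodulin, leiomodin, nebulin-family and related genes made up this list, of which 11 of 14 were tested, 0 were called and 0 had an unadjusted p under 0.05 (limma). All 11 estimates were above 0, with a median of 0.92 on the log2 scale, beside 54.2% of estimates above 0 over all genes. Cardiac troponin C, *Tnnc1*, stood at 927, 2560 and 924 FPKM in the wild-type libraries and at 9482, 2240 and 2245 FPKM in the knockout libraries. Wild-type library 2 against knockout libraries 2 and 3, which is 1 sample against 1, gave the other direction. In it 9 of 11 were lower in the knockout, with a median of -0.32. The 12 cardiomyocyte markers did likewise, with a median of 1.16 over the 4 samples and of -0.36 in that narrower comparison.

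Summed over the list, genes that crosslink and contract cytoplasmic actin were highest in knockout libraries 2 and 3, as *Actb*, *Actg1* and *Tpm4* were. Of 24 tested crosslinker and non-muscle myosin genes, 0 were called and 0 had an unadjusted p under 0.05 (limma), with 18 estimates above 0 and a median of 0.29. The mean of knockout libraries 2 and 3 exceeded wild-type library 2 for 22 of these 24 genes, where 49.8% of all genes were higher. The median was 0.82 on the log2 scale. This sets 1 sample against 1, and a count of genes does not replace replicates. Non-muscle myosin heavy chain *Myh9* stood at 42.3, 59.3 and 46.4 FPKM in the wild-type libraries and at 35.3, 159 and 162 FPKM in the knockout libraries, and it was among the 3 genes nearest to *Actg1*, at a distance of 0.0671. Vinculin, *Vcl*, which links actin to adhesion sites, stood at 25.1, 22.8 and 29.4 FPKM and at 33.6, 57.7 and 60.3 FPKM, so that all knockout libraries exceeded all wild-type libraries. This held for 2 of the 24 genes, where 10.4% of all genes did so. The *Vcl* log2 difference was 0.81 with an adjusted p of 0.999 (limma with Benjamini-Hochberg adjustment). The endothelial genes *Cdh5* and *Pecam1* were also higher in knockout libraries 2 and 3, *Cdh5* at 349 and 353 FPKM against 160 to 173 FPKM in the wild-type libraries. Of the 8 endothelial markers, 6 were higher in knockout libraries 2 and 3 than in wild-type library 2, and 2 were lower. The part of endothelial content was not tested.

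Filament turnover and nucleation genes lay nearer to the background. Of 26 tested turnover genes, such as cofilins, profilins and capping proteins, 0 were called and 1 had an unadjusted p under 0.05 (limma), with 15 estimates above 0 and a median of 0.06. That gene was *Coro1a*, a coronin of blood cells, with a log2 difference of -0.98. It was lower in every knockout library, as the 10 macrophage markers were, and the part of blood cell content was not tested. All knockout libraries fell below all wild-type libraries for 2 of the 26 turnover genes, where 11.5% of all genes did. For another 2 all knockout libraries exceeded all wild-type libraries, where 10.4% of all genes did. Of 22 tested genes for the Arp2/3 complex, its activators and formins, 0 were called and 0 had an unadjusted p under 0.05 (limma), with 13 estimates above 0 and a median of 0.12. In the mean of knockout libraries 2 and 3, 18 of these 22 were higher than in wild-type library 2, with a median of 0.17. This too is 1 sample against 1.

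*Srf*, the gene of the factor that binds CArG boxes, was 1 of 4 genes of the SRF list for which all knockout libraries exceeded all wild-type libraries. It stood at 13.8, 15.4 and 13.7 FPKM in the wild-type libraries and at 27.1, 31.8 and 33.0 FPKM in the knockout libraries. Over all genes 10.4% did so. All knockout libraries fell below all wild-type libraries for 2 genes of the list, where 11.5% of all genes did. The *Srf* log2 difference of 0.98 had an adjusted p of 0.999 (limma with Benjamini-Hochberg adjustment). Among 18 tested genes of SRF, its coactivators and targets, 0 were called and 3 had an unadjusted p under 0.05 (limma), with 9 estimates above and 9 below 0, where 3% of all genes had an unadjusted p under 0.05. The median of the list was 0.01 over the 4 samples and 0.59 without knockout library 1. The mean of knockout libraries 2 and 3 exceeded wild-type library 2 for 12 of the 18 genes, with a median of 0.37, again 1 sample against 1. *Fhl2*, a LIM protein of cardiomyocytes, had a log2 difference of 1.84, the immediate early gene *Fos* one of -2.10, and *Srf* was the third. *Vcl*, *Zyx*, *Flna*, *Tagln2* and *Cnn2* stand in this list and in the crosslinker list, so the counts of these lists partly rest on the same genes. *Acta1*, *Actc1* and *Actg1*, whose windows held a CArG box, did not share a pattern, with distances of 1.19 between *Acta1* and *Actc1*, 1.74 between *Acta1* and *Actg1* and 1.42 between *Actc1* and *Actg1*.

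The genes nearest in pattern to each of the 9 differed by isoform class. *Actc1* lay nearest to *Mdh2*, *Suclg1* and *Myom2*, and *Tpm1* nearest to *Cox6c*, *Cmya5* and *Sod2*, which include mitochondrial enzymes and sarcomere proteins. *Acta1* lay nearest to *Rpl3l*, a ribosomal protein of striated muscle, at 0.134, and then to *Irx4*, a ventricular transcription factor, at 0.269. *Irx4* stood at 0.925, 13.6 and 0.887 FPKM in the wild-type libraries and at 24.1, 5.88 and 8.44 FPKM in the knockout libraries. *Actb* lay nearest to *Micall2* at 0.134, *Tpm2* to *Lcat* at 0.0981, *Tpm3* to *Orc6* at 0.0248 and *Tpm4* to *Ska2* at 0.0405. These distances describe 6 libraries that share the marker differences given above, and they carry no test.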

How the data were processed

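Heart RNA was extracted with Trizol and sequenced from Illumina TruSeq libraries, per the labels' protocols. The authors deposited FPKM values for 23995 genes, with 1 column per library, per the file headers. Cufflinks and build mm10 are named in the submitters' processing notes. The aligner, the annotation and the version of Cufflinks were not given in the sources used here. Besides these genes, 1 line without values is not reported here.

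FPKM is not a count, so tests were made on a log scale. For 1071 genes over 1000 bases, low FPKM values were read as whole fragments (100% of them within 0.15 of a whole number), which gave the approximate depth of each library. The close library pairs were averaged, which left 4 samples. The filter kept genes reaching 1 FPKM in 3 or more libraries. Values were log2(FPKM + 1), a scale that shrinks the differences of low genes. Genotypes were compared with limma 3.58.1 under R 4.3.3 (eBayes with trend and robust), with Benjamini-Hochberg adjustment and a threshold of 0.05. Exact permutation tests used scipy 1.17.1. The scripts were tested on simulated data with 2 samples per genotype. At the spread of these data, 0% of genes given a log2 change of 1 or 2 were called. At a log2 change of 4, 42% were called.

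The members and lists were chosen with earlier results of these data known. Named were the 9 genes, *Ltbp4*, up to 4 genes of each list by smallest p, genes that define a list, and the 3 genes nearest in pattern to each of the 9 among those spanning at least 1 on the log2 scale. Added once the values had been seen were *Esr1*, *Fabp4*, *Tek*, *Tie1* and *Emcn*. So were the genes shared by the SRF and crosslinker lists and the loci that share sequence with the 9 genes. Alternatives were other pseudocounts, filters and scaling, separate libraries, a record-set term, a replicate block and libraries left out.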

Additional observations from a re-analysis of the deposited data

How the results depend on the processing

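With 2 samples per genotype, and gaps between them of up to 3.60 on the log2 scale, intervals were wide. None of the 9 genes was called in any of 16 alternative fits, which covered pseudocount, filter, scaling, treatment of the close library pairs, record set, replicate block and libraries left out, and the lowest adjusted p was 0.360 (limma with Benjamini-Hochberg adjustment), for *Actg1* with the replicate block. Over all genes the count of 1 became 9 with no filter on low values, 2 with 6 separate libraries and 5 without knockout libraries 2 and 3. It ran from 1 to 12 when single libraries were left out, with 12 when wild-type library 2 was left out, and stayed at 1 with the replicate block. The counts of 12 and 5 rest on fits with 1 sample in 1 genotype, which is assumed to vary like the other genotype. Deviations from the genotype mean correlated at 0.12, 0.12 and -0.10 between same-numbered libraries. The close pairs tie these values to each other, so they cannot show whether the replicate numbers pair the samples. Median-of-ratios scaling shifted the median of all genes by 0.02 on the log2 scale.

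Directions turned under some settings, and the cause was not tested. *Acta1* gave -0.47 without wild-type libraries 1 and 3. Wild-type library 2 against knockout libraries 2 and 3, 1 sample against 1, gave -1.41 for *Acta1*, -0.016 for *Actc1*, 1.19 for *Actb* and -0.23 for *Tpm1*. Without knockout libraries 2 and 3 the values were -0.39 for *Actg1*, -0.55 for *Tpm3* and -0.98 for *Tpm4*. *Actb* was 0.52 with 6 separate libraries, with the record-set term and with the replicate block. With single libraries left out, *Acta1* ran from 0.39 to 3.13, *Actc1* from 0.097 to 1.26, *Actg1* from 0.67 to 1.74, *Tpm4* from 0.014 to 1.03, *Actb* from -0.022 to 1.39, *Actg2* from -0.87 to 0.51, *Tpm1* from -0.039 to 1.08, *Tpm2* from -0.65 to 0.13 and *Tpm3* from -0.20 to 0.71. Leaving out knockout library 1 gave the highest value for *Actg1*, *Tpm4*, *Actb*, *Actg2*, *Tpm2* and *Tpm3* and the lowest for *Acta1*, *Actc1* and *Tpm1*.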
